A study of Ovis aries with 4 samples.

Results

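C1QA-positive macrophages of the lactating sheep mammary gland were selected by their own transcripts. A barcode was kept if at most 20% of its unique molecular identifiers (UMIs, tags that each stand for 1 captured transcript) came from 13 mitochondrial genes. It was called a macrophage if it held at least 2 UMIs of C1QA, no UMI of CD3E, EPCAM or EDNRA, and fewer than 5 UMIs of DCN. This gave 1067 macrophages among 38886 barcodes within the mitochondrial limit, or 2.74%, and 39246 barcodes were deposited in all. The tissue came from 4 lactating ewes (Ovis aries), 1 droplet-based single-cell RNA library each. The series describes 2 ewes at late lactation (LL) and 2 at peak lactation, and the libraries were labelled LL replicates 1 and 2 and LH replicates 1 and 2. The labels do not spell out LH, and they are read here as the peak lactation ewes, the stage that is left over. No treatment, strain or age was given in the labels, and nothing else than stage separated the groups by label. Macrophages were set against the 37819 other cells within the mitochondrial limit, against 305 C1QA-negative cells with at least 3 UMIs of IL1A and IL1B together (called IL1 cells here), and LL against LH.

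Macrophages are phagocytes of the innate immune system that live in almost every tissue. C1QA encodes a chain of C1q, which starts the classical complement pathway and which tissue macrophages make themselves. MRC1 is the mannose receptor, an endocytic receptor for sugar-bearing ligands, CD14 is the co-receptor that hands lipopolysaccharide to TLR4, and FCGR1A is the high-affinity receptor for immunoglobulin G. In the mammary gland macrophages lie beside ducts and alveoli, take up milk fat and dying cells, and call neutrophils into the gland when bacteria enter it.

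The macrophages numbered 305 and 131 in the LL libraries and 222 and 409 in the LH libraries. They held 1750953 and 465998 UMIs in LL and 1098668 and 1534457 UMIs in LH, against library totals of 28015149 to 65339993 UMIs. The median macrophage held 5488 and 3273 UMIs in LL and 3150.5 and 2032 UMIs in LH, whereas the median other cell held 2709 to 3329 UMIs. LL replicate 2 therefore gave the shallowest macrophage sum and LH replicate 2 the shallowest cells. Of the 20150 genes in the files, 774 carried a symbol, and they took 13.2% to 15.4% of the macrophages' UMIs. Any 2 libraries shared 15 to 39 barcode sequences, 1 of them between macrophages. Levels below are CPM, UMI counts summed over a set of cells in a library and scaled to a common total, and 4 values in a row stand in the order LL replicates 1 and 2, then LH replicates 1 and 2.

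The label was checked with markers that the selection did not use. MRC1 stood at 273, 365, 372 and 196 CPM in macrophages, against 6.69, 2.85, 5.78 and 2.23 CPM in other cells. FCGR1A stood at 54.8, 154.5, 63.7 and 54.1 CPM in macrophages and at 0.565, 0.356, 0.820 and 0.860 CPM in other cells. For CD14 the macrophages held 43.4, 30.04, 36.4 and 51.5 CPM and the other cells 4.43, 4.81, 2.46 and 4.38 CPM. All 3 markers were higher in macrophages of every ewe, with no overlap between the sets. In edgeR's quasi-likelihood test with the ewe as a block, the log2 differences were 6.33 ± 0.28 for MRC1 (SE, n = 4 ewes; edgeR adjusted p = 1.86e-07), 6.99 ± 0.42 for FCGR1A (edgeR adjusted p = 1.07e-06) and 3.52 ± 0.29 for CD14 (edgeR adjusted p = 1.05e-05). Macrophages held 72.0% of all FCGR1A UMIs (321 of 446) and 61.4% of all MRC1 UMIs (1358 of 2210), but 19.3% of all CD14 UMIs. C1QA itself, which defined the cells, stood at 4448, 4912, 5151 and 5301 CPM in macrophages and at 10.9 to 48.3 CPM in other cells.

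Of the 12 macrophage markers listed for this work, 4 carried a symbol, so CD68, CD163, CSF1R and the remaining C1q chains were not analysed here. None of the 11 listed dendritic cell markers and none of the 6 B and plasma cell markers carried a symbol. A C1QA-positive dendritic cell could therefore not be told apart from a macrophage by these files.

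The threshold of 2 UMIs lay on the falling slope of the distribution, with 374 cells at 1 UMI of C1QA, 90 at 2 and 52 at 3. The median macrophage held 19, 13, 16 and 11 UMIs of C1QA, and 673 of the 1067 held at least 10. Just inside the limit, 90 cells with 2 UMIs of C1QA held 2042 CPM of the MHC class II gene DQA, 367 CPM of CD86 and 178 CPM of MRC1. Just outside it, 374 cells with 1 UMI held 378 CPM of DQA, 84.6 CPM of CD86 and 51.4 CPM of MRC1. Cells with at least 10 UMIs of C1QA held 7698.5, 919 and 270.1 CPM of the same genes. Over all libraries together, the 3 genes were thus higher just inside the limit than just outside it, and higher again at 10 UMIs or more. The order was not even: the 52 cells with 3 UMIs held 155.5 CPM of CD86 and 95.7 CPM of MRC1, below the cells with 2 UMIs, and MRC1 was highest at 4 to 9 UMIs (428 CPM). In LL replicate 2 it was reversed at the limit, as 11 cells with 2 UMIs held 647 CPM of DQA, 38.1 CPM of CD86 and 0 CPM of MRC1, against 834, 123 and 155 CPM in 43 cells with 1 UMI. PAEP, the milk protein beta-lactoglobulin, stood at 628 CPM in the cells with 2 UMIs of C1QA and at 150.4 CPM in those with at least 10.

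The exclusion of other lineages' markers removed unequal parts of the C1QA-bearing cells. It removed 65 of 370 and 63 of 194 cells with at least 2 UMIs of C1QA in LL, and 40 of 262 and 177 of 586 in LH. In LH replicate 2, 122 of these cells carried an EPCAM UMI and 63 an EDNRA UMI, whereas in LH replicate 1 CD3E was the most frequent ground, with 31 cells. A doublet score marked 41 of the 1067 macrophages as possible pairs of cells. They were kept, and the macrophage share, the share with MRC1 and the gene counts against other cells, against IL1 cells and between stages were also computed without them.

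Macrophages made up 2.41% and 1.19% of cells in the LL libraries and 3.79% and 4.37% in the LH libraries. Exact binomial 95% intervals, which cover counting error only, were 2.15% to 2.70% and 0.994% to 1.41% in LL and 3.32% to 4.31% and 3.96% to 4.80% in LH. Both LL libraries lay below both LH libraries, and the intervals of the stages did not overlap. The difference of the means was -2.28 percentage points (LL minus LH; exact two-sided permutation p = 0.333), and 0.333 is the smallest p that 2 ewes against 2 allow. It ran from -2.89 to -1.67 points when single libraries were left out. Among barcodes of at least 1000 UMIs, which leaves out more of the shallow LH macrophages, it was -1.56 points.

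T cells filled much of LH replicate 1, and they enter the denominator of the share. Among cells without a CD3E UMI, macrophages made up 2.67% and 1.30% in LL and 6.92% and 4.75% in LH, and the difference was -3.85 points (exact p = 0.333). The stages remained apart with this denominator. Of all UMIs in a library, macrophages held 2.91% and 0.716% in LL and 3.94% and 2.73% in LH, where LL replicate 1 lay above LH replicate 2.

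**Figure D1:**
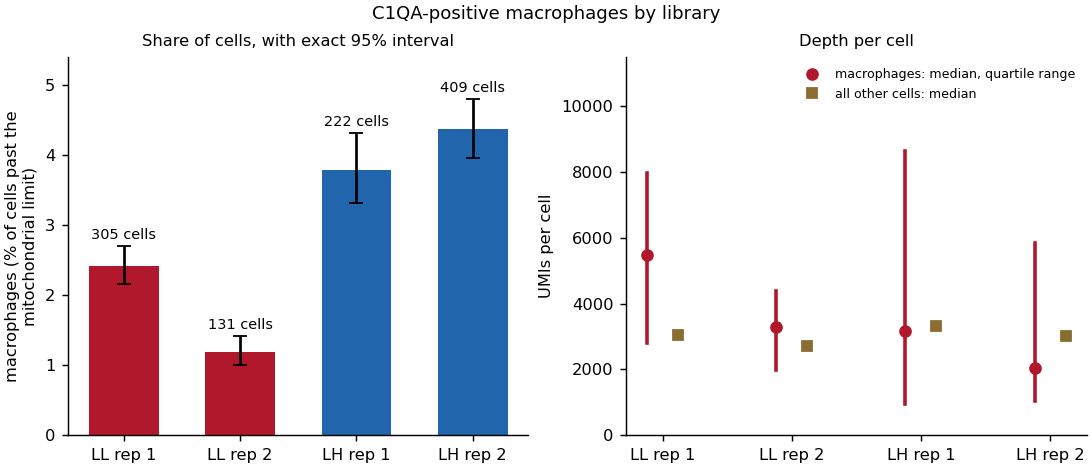
The left panel plots the macrophage share of all barcodes within the mitochondrial limit per library, with exact binomial 95% intervals, and the right panel the UMIs per cell, with the median and quartiles of macrophages and the median of other cells. The LL shares of 2.41% and 1.19% lie below the LH shares of 3.79% and 4.37%, and the macrophage medians are 5488 and 3273 UMIs in LL and 3150.5 and 2032 UMIs in LH.

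Set against all other cells, macrophages carried more RNA of sensing, uptake and antigen-presenting genes, and less RNA of epithelial and stromal genes. Of 13203 genes tested in edgeR with the ewe as a block, 37.9% passed a Benjamini-Hochberg adjusted p of 0.05. Of all tested genes, 2203 or 16.7% were higher in macrophages and 2803 or 21.2% were lower. DESeq2 called 37.5% of genes, 15.8% higher and 21.7% lower. Of the 546 tested genes with a symbol, 138 were higher and 133 lower. The median log2 difference over all tested genes was -0.10 with TMM scaling and -0.25 with scaling to library totals, so each difference below can be read against that shift. Genes of the selection rule were not tested, and the exclusion of EPCAM, DCN, EDNRA and CD3E bears on genes that go with these markers. The other cells include C1QA-bearing cells that the other markers excluded.

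The Fc receptors, which bind antibody-coated particles, were high in macrophages. FCGR3A, a low-affinity receptor for immunoglobulin G, stood at 191, 423, 339 and 298 CPM in macrophages and at 6.95, 2.96, 11.6 and 8.44 CPM in other cells (log2 5.59 ± 0.37, edgeR adjusted p = 2.13e-06). FCGRT, the neonatal Fc receptor, which recycles and transports immunoglobulin G, stood at 36.5, 32.2, 80.1 and 98.4 CPM in macrophages, against 8.30, 10.1, 7.50 and 24.7 CPM in other cells (log2 2.48 ± 0.31, edgeR adjusted p = 0.00013). FCGR2B, the inhibitory receptor, held 14 UMIs over all macrophages and missed the threshold (log2 0.27, edgeR adjusted p = 0.838). Together with FCGR1A, 3 of the 4 tested genes of the list were higher and none lower. The list's median log2 difference was 4.04, against -0.10 over all genes.

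Among uptake receptors and integrins, MRC1 and ITGAV, the alpha-v integrin chain that takes part in the clearance of dying cells, were both higher. ITGAV stood at 1158, 729.6, 919 and 832 CPM in macrophages and at 208, 199, 178 and 301 CPM in other cells (log2 2.18 ± 0.26, edgeR adjusted p = 8.66e-05). ITGAM, the alpha chain of complement receptor 3, stood at 22.8, 21.5, 18.2 and 19.6 CPM in macrophages, against 0.619 to 2.50 CPM in other cells (log2 3.98, edgeR adjusted p = 3.05e-05). Its partner chain ITGB2 differed by a log2 of 3.55 (edgeR adjusted p = 7.35e-05). In the adhesion list of 9 tested genes, 5 were higher and 2 lower. The lower genes were CD9, a tetraspanin (log2 -2.30), and ITGB1, the beta-1 integrin chain (log2 -0.62).

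Pattern recognition was the list with the most members of 1 direction: 10 of its 11 tested genes were higher and none lower. Over all tested genes 16.7% were higher, and over those with a symbol 138 of 546. TLR8, near the floor in other cells, met the low-count filter through macrophages. TLR8 and TLR7 encode endosomal sensors of single-stranded RNA. TLR8 stood at 46.8, 42.9, 30.04 and 42.4 CPM in macrophages and at 0.139 to 0.714 CPM in other cells (log2 6.68 ± 0.38, edgeR adjusted p = 6.9e-07). TLR7 stood at 32.5, 85.8, 69.2 and 48.2 CPM in macrophages and at 0.743 to 1.23 CPM in other cells (log2 5.91 ± 0.31, edgeR adjusted p = 4.34e-07). Neither receptor's sets overlapped. TLR4, the receptor for lipopolysaccharide, stood at 81.7, 251, 181 and 104 CPM in macrophages, against 16.5, 9.18, 5.89 and 12.2 CPM in other cells (log2 3.9, edgeR adjusted p = 4.03e-05). The sensors of bacterial lipopeptides TLR1, TLR2 and TLR6 had log2 differences of 3.83, 2.06 and 1.85, and TLR3, which senses double-stranded RNA, had 1.81. The signalling partners MYD88 and IRAK4 were also higher (log2 1.78 and 0.95). TLR5, the flagellin receptor, was the exception with a log2 difference of 1.28 (edgeR adjusted p = 0.0881).

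Antigen presentation was high in macrophages through its class II and costimulatory members. DQA stood at 4854, 5522, 7889 and 9297 CPM in macrophages and at 98.5, 61.7, 86.5 and 204 CPM in other cells (log2 6.16 ± 0.32, edgeR adjusted p = 3.77e-07). Its symbol stands for a family of near-identical MHC copies, so the split of its reads among copies is uncertain. CD86, a ligand that costimulates T cells, stood at 732, 946, 978.5 and 846 CPM in macrophages, against 15.6, 3.37, 15.4 and 9.32 CPM in other cells (log2 6.65 ± 0.40, edgeR adjusted p = 1.07e-06). IFI30, a lysosomal thiol reductase that opens antigens for class II loading, stood at 1387, 1135, 1254 and 1994 CPM in macrophages and at 80.1, 86.0, 67.0 and 104.7 CPM in other cells (log2 4.21, edgeR adjusted p = 1.04e-06). All 3 genes were apart in each of the 4 ewes. CD80, the other B7 ligand, differed by a log2 of 2.92, and the immunoproteasome subunit PSMB8 by 0.66 (edgeR adjusted p = 0.0271). The class I members did not pass: B2M had a log2 difference of 0.55 (edgeR adjusted p = 0.0502) and TAPBP of -0.06. In the list of 8 tested genes, 5 were higher and none lower.

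Genes of the lysosome, where engulfed material is broken down, were higher in 5 of 6 tested cases, with a list median of 3.23. LIPA, the acid lipase that hydrolyses engulfed cholesteryl esters and triglycerides, stood at 372, 348, 338 and 342 CPM in macrophages, against 32.8, 31.4, 22.2 and 12.3 CPM in other cells (log2 4.05, edgeR adjusted p = 3.32e-06). The cysteine protease CTSB stood at 565, 161, 402 and 394 CPM in macrophages and at 48.0, 24.0, 33.8 and 34.7 CPM in other cells (log2 3.50, edgeR adjusted p = 4.22e-06). LIPA was nearly level over the 4 ewes, while CTSB was lowest in LL replicate 2. LYZ (lysozyme), ACP5 (tartrate-resistant acid phosphatase) and HEXA (a hexosaminidase chain) differed by log2 values of 3.89, 2.96 and 2.60. SMPD1, the acid sphingomyelinase, held 11 UMIs over all macrophages and did not pass (log2 -0.14, edgeR adjusted p = 0.874).

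Chemokines and cytokines of acute inflammation were high in the macrophages. CXCL8, which attracts neutrophils, had the largest difference of any named gene. It stood at 1104, 858, 3212 and 754 CPM in macrophages and at 7.89, 3.59, 15.4 and 8.70 CPM in other cells (log2 7.43 ± 0.33, edgeR adjusted p = 1.86e-07). Macrophages thus held 7020 of all 8602 CXCL8 UMIs, or 81.6%. CXCL1, a related neutrophil chemokine, stood at 68.0, 112, 116 and 38.5 CPM in macrophages and at 1.16 to 2.74 CPM in other cells (log2 5.50, edgeR adjusted p = 1.2e-06). IL1A stood at 977, 4773, 3310 and 1682 CPM in macrophages, against 20.5, 20.1, 37.6 and 31.6 CPM in other cells (log2 6.54 ± 0.40, edgeR adjusted p = 1.11e-06). IL1B stood at 166, 652, 1255 and 313 CPM in macrophages, against 2.72, 3.27, 17.6 and 9.21 CPM in other cells (log2 6.32 ± 0.39, edgeR adjusted p = 1.11e-06). Both interleukins varied widely among the ewes and were lowest in LL replicate 1, yet their macrophage values lay above those of other cells in every ewe.

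Other cytokines differed less or the other way. TNF stood at 99.95, 442, 260.3 and 119 CPM in macrophages and at 43.5, 28.9, 255 and 39.1 CPM in other cells (log2 1.79, edgeR adjusted p = 0.0119), so that LH replicate 1 was nearly level. IL18 differed by a log2 of 1.26 and PTGS2, the inducible cyclooxygenase, by 1.69. IFNG, the macrophage-activating cytokine that T and NK cells make, was lower (log2 -1.95, edgeR adjusted p = 0.0327), as were IL6 (log2 -1.87) and IL15 (log2 -1.35). In the list of 10 tested inflammatory cytokines, 5 were higher and 3 lower, with a median of 0.42. TGFB1, VEGFA and PDGFB, growth factors that macrophages supply to stroma and vessels, were higher with log2 differences of 1.68, 1.73 and 2.19. FGF2 (log2 -2.19), BMP4 (log2 -1.56) and INHBA were lower. These 6 genes had a median of 0.06, which turned to -0.02 with DESeq2 size factors and to -0.10 with library totals. XCL1, a lymphocyte chemokine, and CCL28, an epithelial chemokine that draws plasma cells, were lower (log2 -1.79 and -3.71).

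NFKBIA, the NF-kappa-B inhibitor that NF-kappa-B itself induces, stood at 5312, 6715, 6279 and 4424 CPM in macrophages and at 954, 1151, 924 and 863 CPM in other cells (log2 2.67 ± 0.24, edgeR adjusted p = 1.81e-05). ICAM1, a leukocyte adhesion molecule, differed by a log2 of 2.01, while ZFP36 and MAPK14 did not pass. Immediate early genes, which tissue dissociation can induce, were mixed: FOS had 6793, 3936, 5108 and 5996 CPM in macrophages and 4262, 4263, 2358 and 5604 CPM in other cells (log2 0.58, edgeR adjusted p = 0.159). Of that list of 8 genes, BTG2, CDKN1A and BTG1 were higher (log2 1.37, 1.65 and 0.87) and the heat shock gene HSPA1A lower (log2 -1.35).

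Of 8 interferon-induced genes, 4 were higher and none lower. MX2, an antiviral GTPase, stood at 95.4, 264, 107 and 339.5 CPM in macrophages and at 8.54, 4.80, 4.77 and 31.5 CPM in other cells (log2 4.4 ± 0.35, edgeR adjusted p = 7.55e-06). CXCL10, MX1 and ISG15 differed by log2 values of 3.05, 1.85 and 1.92, while the regulator IRF1 did not pass (log2 -0.45, edgeR adjusted p = 0.142). MX2 was highest in LL replicate 2 and LH replicate 2, in macrophages of both stages. The receptor chains IFNAR1 and IFNAR2 were higher in macrophages (log2 1.87 and 1.28).

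The matrix protease list split evenly, with 6 of 12 tested genes higher and 6 lower. PLAUR, the urokinase receptor, stood at 323, 921, 767 and 511 CPM in macrophages, against 9.21, 8.08, 9.40 and 9.52 CPM in other cells (log2 6.15 ± 0.30, edgeR adjusted p = 2.92e-07). PLAU, its ligand urokinase, stood at 361, 526, 386 and 452 CPM in macrophages, against 49.8, 31.3, 11.7 and 33.2 CPM in other cells (log2 4.05, edgeR adjusted p = 8.23e-06). In neither gene did the sets overlap. MMP19, TIMP2 and MMP14 were also higher (log2 4.02, 2.24 and 1.34). TIMP1, TIMP3, SPARC and SPP1 were lower (log2 -2.11, -2.51, -2.25 and -2.54), together with MMP7 and MMP2. SPP1 (osteopontin), which macrophages make in many tissues and which is also a milk protein, stood at 195, 163, 65.5 and 345 CPM in macrophages and at 325, 910.5, 1032 and 3538 CPM in other cells.

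Lipid and energy genes were called in both directions. FABP5, a fatty acid carrier of macrophages and epithelium, stood at 625, 272.5, 511 and 1133 CPM in macrophages and at 305, 128, 103 and 215 CPM in other cells (log2 1.85, edgeR adjusted p = 0.000685). The lipogenic genes SCD5 and ACACA were lower (log2 -4.23 and -1.43), and PLIN2, the coat protein of lipid droplets, did not pass (log2 -0.37, edgeR adjusted p = 0.371). Over 19 tested lipid genes, 5 were higher and 6 lower, with a median of 0.15. SLC2A5, the fructose transporter, stood at 98.2, 129, 42.8 and 103 CPM in macrophages and at 0.373 to 1.17 CPM in other cells (log2 6.98 ± 0.28, edgeR adjusted p = 1.1e-07). The glucose transporter SLC2A3 went the other way (log2 -1.21, edgeR adjusted p = 0.00516) and GAPDH did not pass (log2 0.53). None of 6 tested oxidative phosphorylation genes passed in edgeR or DESeq2, and 0 of them had an unadjusted p under 0.05.

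Iron genes included FTH1, the ferritin heavy chain that stores iron, with 10834, 5646, 14144 and 11057 CPM in macrophages and 3259, 3778, 2810 and 4831 CPM in other cells (log2 1.60, edgeR adjusted p = 0.00449). SLC11A1, a metal transporter of the phagosome, held 44 UMIs over all macrophages at 4.29 to 12.6 CPM, against 0.149 to 0.547 CPM in other cells (log2 5.13, edgeR adjusted p = 4.35e-05). LTF and HAMP, which encode lactoferrin and hepcidin, were lower. Further genes in the macrophages were RETN, which encodes the secreted protein resistin (log2 6.85 ± 0.35, edgeR adjusted p = 3.77e-07), CAPN3, a calpain protease (log2 5.32, edgeR adjusted p = 4.95e-07), and KYNU, an enzyme of tryptophan breakdown (log2 4.55, edgeR adjusted p = 6.96e-06). RETN stood at 10.8, 70.8, 102 and 84.7 CPM in macrophages, lowest in LL replicate 1, and at 0.239 to 1.02 CPM in other cells. The 6 transcription factor genes of the list included no higher gene and 2 lower ones, STAT5A (log2 -1.44) and BHLHE40 (log2 -1.02), and PPARG did not pass (log2 0.42, edgeR adjusted p = 0.296).

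The genes lowest in macrophages belonged to epithelium, stroma and lymphocytes. CLDN4 and CLDN7 of tight junctions (log2 -4.91 and -4.14), the epithelial integrin ITGB6 (log2 -4.14), the desaturase SCD5 (log2 -4.23), LTF (log2 -4.33) and the chemokine CCL28 were the epithelial ones. LTF stood at 40.5, 133, 6.37 and 82.1 CPM in macrophages and at 796, 3200, 396 and 1022 CPM in other cells (edgeR adjusted p = 8.13e-06). The gelatinase MMP2 stood at 1.71, 2.15, 0 and 0 CPM in macrophages and at 81.5, 34.2, 17.1 and 1.23 CPM in other cells (log2 -5.23 ± 0.49, edgeR adjusted p = 2.16e-05), and SERPINF1, a secreted serpin of fibroblasts, had a log2 of -4.64. IL12RB2, a receptor chain for interleukin 12 on T and NK cells, had a log2 of -4.73 (edgeR adjusted p = 7.8e-05), which became -1.60 (edgeR adjusted p = 0.063) when cells with 1 UMI of C1QA were included, the highest adjusted p of its 15 alternatives. LEPR, the leptin receptor, stood at 2.86, 6.44, 1.82 and 3.26 CPM in macrophages and at 34.8, 99.2, 35.0 and 41.5 CPM in other cells (log2 -3.67, edgeR adjusted p = 7.51e-06). These 10 genes were lower in each of the 4 ewes. For MMP2 in LH replicate 2 this was 0 against 1.23 CPM, near the floor, so the direction there is uncertain.

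**Figure D2:**
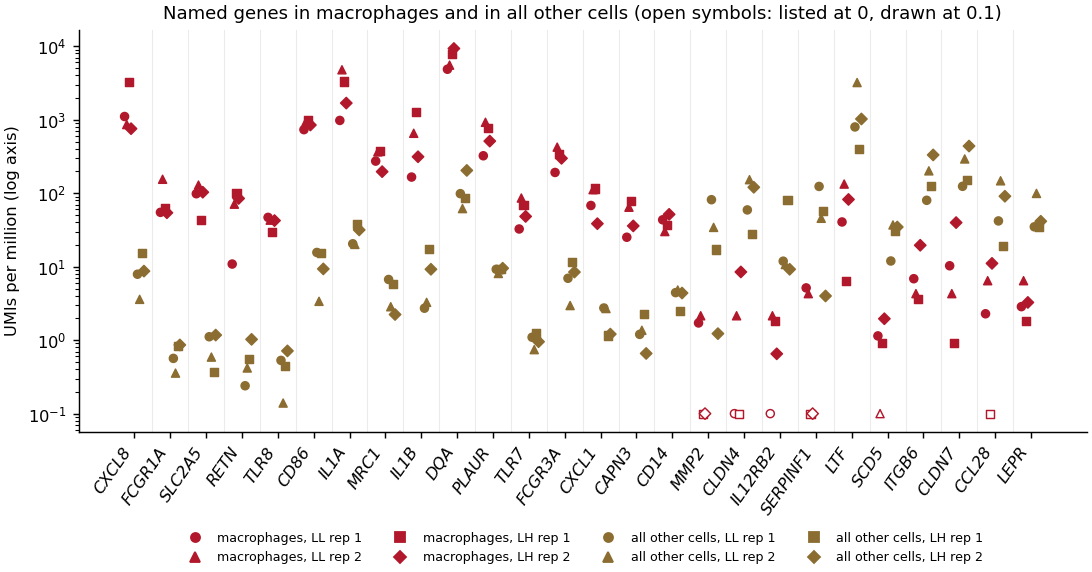
Levels in CPM (log axis) of 26 named genes in macrophages and in all other cells, 1 point per library, with levels of 0 drawn as open symbols at 0.1. From CXCL8 at the left to CD14 the macrophage points lie above those of other cells, and from MMP2 to LEPR at the right each macrophage point lies below the point of other cells from the same library.

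RNA of other lineages was not fully absent from the macrophages, and its part in the results above was not tested. The 6 T cell markers with a symbol summed to 8.47 to 18.2 CPM in macrophages, against 47.3 to 426 CPM in other cells, with CD3E at 0 by rule. The 8 luminal markers summed to 937, 221, 6.37 and 149 CPM in macrophages and to 2303, 5737, 731.5 and 2062 CPM in other cells, with EPCAM at 0 by rule. In LL replicate 1 this sum came mainly from PAEP (469 CPM) and CSN3 (307 CPM), which encodes kappa-casein, and in LH replicate 1 PAEP was at 0 among macrophages. The 5 fibroblast markers summed to 380.4, 230, 165 and 233 CPM in macrophages and to 576 to 4716 CPM in other cells. Both mast cell markers with a symbol, TPSB2 and FCER1A, were at 0 in all macrophages. CDK1, the cell cycle kinase and the 1 cycling marker with a symbol, stood at 4.57, 17.2, 7.28 and 19.6 CPM in macrophages and at 2.98 to 6.54 CPM in other cells (log2 1.54, edgeR adjusted p = 0.0161).

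Set against IL1 cells, macrophages held more RNA of Fc receptors, MRC1, MX2 and MHC class II. The 305 IL1 cells (84 and 61 in LL, 75 and 85 in LH) carried IL1A and IL1B by rule, yet also 12% to 45.9% of them per library carried an EPCAM or PAEP UMI and 11.5% to 36% a CD3E UMI. The luminal markers summed to 237, 4004, 1497 and 1781 CPM in IL1 cells, so these cells were no pure myeloid set, and the part of this in the differences was not tested. Conversely, 416 of the 1067 macrophages held at least 3 UMIs of IL1A and IL1B together: 33.4% and 55.7% in LL and 45.5% and 34.2% in LH. Those macrophages were deeper, with medians of 7789 and 3937 UMIs in LL and 8951 and 6986.5 UMIs in LH, against 3890 and 1983.5 in LL and 1187 and 1265 in LH for the macrophages without. IL1A, IL1B, CXCL8 and PTGS2 summed to 2296.5, 6388, 7872 and 2777 CPM in macrophages and to 1606.5, 661, 936 and 1494 CPM in IL1 cells. By this sum the IL1 cells lay below the macrophages in each library.

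In edgeR, 20.6% of 7150 tested genes differed between macrophages and IL1 cells, with 822 or 11.5% higher and 653 or 9.13% lower. DESeq2 called 21.2%, with 11.6% higher and 9.58% lower. Among the 355 tested genes with a symbol, 73 were higher and 44 lower in edgeR. The edgeR count was 2183 without LL replicate 1, 891 without LL replicate 2, 761 without LH replicate 1 and 650 without LH replicate 2. Of 5 Fc receptor genes with a symbol, 3 were tested and all 3 were higher. The low-count filter can be met by the sums of a single set, so it partly fixes such list counts. FCGR1A and FCGR3A both met it through macrophages, so the count of 3 higher genes was partly fixed in advance. FCGR1A was at most 8.76 CPM in IL1 cells, and the size of its log2 is uncertain. FCGR3A stood at 191, 423, 339 and 298 CPM in macrophages and at 5.84, 6.81, 7.06 and 29.1 CPM in IL1 cells (log2 4.81 ± 0.46, edgeR adjusted p = 0.00169). FCGR1A stood at 8.76, 0, 1.18 and 0 CPM in IL1 cells (log2 5.49 ± 0.77, edgeR adjusted p = 0.00375), and FCGRT had a log2 of 1.93. MRC1 stood at 78.9, 1.36, 27.1 and 14.5 CPM in IL1 cells and was higher in macrophages (log2 3.78 ± 0.68, edgeR adjusted p = 0.00911). Without LH replicate 2, the values were 3.83 for MRC1 (edgeR adjusted p = 0.053) and 2.48 for CD14 (edgeR adjusted p = 0.0708), whose log2 with all libraries was 2.49 (edgeR adjusted p = 0.0113). Over 15 alternatives the adjusted p ran from 9.8e-12 to 0.053 for MRC1 and from 3.9e-06 to 0.0708 for CD14 in edgeR or DESeq2.

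MX2 was the gene of lowest p among those named against IL1 cells, at 95.4, 264, 107 and 339.5 CPM in macrophages, against 2.92, 2.73, 2.35 and 13.1 CPM in IL1 cells (log2 5.32 ± 0.35, edgeR adjusted p = 0.000971). It met the low-count filter through macrophages and lay near the floor in IL1 cells of all libraries but LH replicate 2. The size of its log2 is therefore uncertain. MX1 was higher as well (log2 2.56), whereas ISG15 did not pass (log2 0.95, edgeR adjusted p = 0.052). DQA stood at 976, 61.3, 102 and 772 CPM in IL1 cells (log2 4.67 ± 0.79, edgeR adjusted p = 0.00733) and CD86 at 412, 39.5, 64.7 and 121 CPM (log2 3.05, edgeR adjusted p = 0.0118). In both genes LL replicate 1 held the highest IL1 cell value. The endosomal receptors TLR7 and TLR8 were higher in macrophages (log2 4.38 and 3.86), while TLR4 did not pass (log2 1.49, edgeR adjusted p = 0.0977). Over the pattern recognition list, 4 of 9 genes were higher and none lower. RETN, which was high in macrophages against all other cells, did not pass against IL1 cells (log2 2.16, edgeR adjusted p = 0.0807), nor did LYZ (log2 -0.69, edgeR adjusted p = 0.184).

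The lysosomal genes LIPA, CTSB, HEXA and ACP5 were higher than in IL1 cells (log2 3.07, 3.03, 2.71 and 3.11), 4 of 5 tested. CXCL8 stood at 111, 91.3, 153 and 229.6 CPM in IL1 cells (log2 3.17 ± 0.45, edgeR adjusted p = 0.00388), and CXCL1, NFKBIA, PLAU and PLAUR were higher too (log2 1.92, 1.59, 2.91 and 2.90). SLC2A5, CAPN3, KYNU, BAMBI (a pseudoreceptor of TGF-beta signalling) and the transcription factor MEF2C completed the named higher genes (log2 4.07, 4.55, 3.41, 3.57 and 3.19). MEF2C passed with all libraries (edgeR adjusted p = 0.02) but had an adjusted p of 0.075, 0.0775 and 0.0518 in edgeR without LH replicate 1, LH replicate 2 and LL replicate 2. BAMBI had 0.0671 without LH replicate 2. The lowest over the alternatives were 1.6e-09 for MEF2C and 9.9e-08 for BAMBI, with no filter on low counts.

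Cells with a UMI of CD3E, EPCAM or EDNRA, or with at least 5 UMIs of DCN, were excluded from macrophages but not from IL1 cells. This exclusion favours lower T cell, epithelial and stromal genes in macrophages, so the calls below are no independent trait of macrophages. Among lower genes, CD28, the T cell costimulatory receptor that binds CD86, stood at 7.996, 4.29, 6.37 and 3.91 CPM in macrophages and at 321, 80.4, 176 and 42.1 CPM in IL1 cells (log2 -4.53 ± 0.37, edgeR adjusted p = 0.00109). CD40LG, another T cell ligand, and IL12RB2 were lower (log2 -3.87 and -4.97). The epithelial genes ITGB6, CLDN7 and MMP7 had log2 values of -4.56, -4.15 and -3.97, and LEPR and TMEM154 had -3.67 and -3.29. GULP1, NFIB, MET and CRYAB were also lower (log2 -3.92, -3.69, -3.39 and -3.31). The calls of CLDN7, GULP1, NFIB, MET and CRYAB did not hold without LH replicate 2 (edgeR adjusted p of 0.0767, 0.0593, 0.0851, 0.115 and 0.0734) or without LL replicate 2 (0.0911, 0.059, 0.0841, 0.0938 and 0.132). Their log2 values were then -4.72, -4.11, -3.74, -3.40 and -3.91 without LH replicate 2 and -3.74, -3.55, -3.69, -3.13 and -2.90 without LL replicate 2. That of MET was also lost when cells with 1 UMI of C1QA were included (edgeR adjusted p = 0.0597). Their lowest adjusted p over the alternatives lay between 4.9e-10 for GULP1 and 3.1e-07 for MET.

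**Figure D3:**
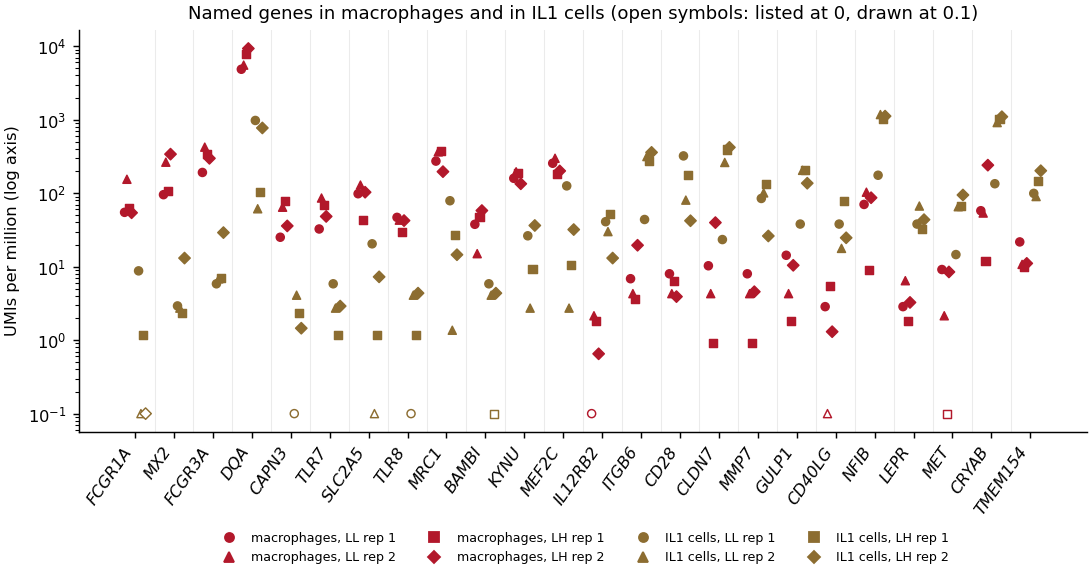
Levels in CPM (log axis) of 24 named genes in macrophages and in IL1 cells, 1 point per library, with levels of 0 drawn as open symbols at 0.1. The macrophage points of FCGR1A, MX2 and FCGR3A lie apart above those of IL1 cells, while the IL1 cell points of MRC1 and DQA spread widely over the ewes.

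The macrophages differed among themselves. To compare cells of unequal depth, each was thinned to 2000 UMIs, which kept 250 and 98 macrophages in LL and 126 and 206 in LH and left out 55, 33, 96 and 203 shallower ones. T cells (at least 2 UMIs of CD3E, none of EPCAM) were thinned in the same way for comparison. Their shares are no measure of free RNA alone. They also hold the T cells' own RNA and any doublets with macrophages, as C1QA was not used to exclude cells. An MRC1 UMI was found in 26.4% and 30.6% of LL macrophages and in 27.8% and 12.1% of LH macrophages, against at most 0.323% of T cells in any library. LH replicate 2 thus stood below the other libraries. The difference between stages was 8.55 points (exact p = 0.667), and 0.728 points without LH replicate 2. It was 3.85 points with at least 3 UMIs of C1QA required, 4.28 points without doublet calls and 3.51 points at 1000 UMIs per cell.

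CD86 was found in 61.6% and 65.3% of LL macrophages and in 65.1% and 58.7% of LH macrophages, against 2.05% to 5.81% of T cells, so it was carried by most macrophages at this depth. DQA was found in 89.6% to 98.1% of macrophages and in 9.23% to 14.5% of T cells. The share with a CXCL8 UMI was 56.8% and 45.9% in LL and 73.8% and 42.7% in LH, and the share with an IL1B UMI was 13.6% and 43.9% in LL and 54.8% and 24.3% in LH. Neither followed stage, as both LL libraries lay between the LH libraries for CXCL8 and LL replicate 2 lay above LH replicate 2 for IL1B. FABP5 was found in 41.2% and 20.4% of LL macrophages and in 39.7% and 64.1% of LH macrophages, against 11.2% to 14.8% of T cells. CD14 was found in 5.56% to 9.6% of macrophages per library and FCGR1A in 8.25% to 25.5%, so that most macrophages had no UMI of either at this depth.

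SPP1 and PAEP followed a different pattern. SPP1 was found in 3.2% and 5.10% of LL macrophages and in 4.76% and 30.1% of LH macrophages, against 2.58%, 5.64%, 2.31% and 16.5% of T cells, so both sets were highest in LH replicate 2 and the LL shares lay near those of T cells. PAEP was found in 22.8%, 13.3%, 0 and 10.2% of macrophages and in 8.07%, 8.21%, 0.178% and 5.29% of T cells. The 0 of 126 macrophages in LH replicate 1 allows a share of up to 2.38% (3 counts), for counting error only. TNF was found in 12.1% to 26.5% of macrophages per library and in 20% to 34.5% of T cells, so the T cells lay at or above the macrophages in all but LL replicate 2.

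Within macrophages thinned to 2000 UMIs, those with an IL1B UMI (34, 43, 69 and 50 cells) held more NFKBIA than those without (216, 55, 57 and 156 cells) in 4 of 4 libraries. The NFKBIA means over libraries were 8191 CPM with IL1B and 4169 CPM without. The same direction in 4 of 4 libraries was seen for CXCL8 (2151 CPM with IL1B and 892 CPM without), IL1A (4345 and 1757 CPM), CD86 (1184 and 776 CPM), VEGFA (106 and 31.8 CPM), CD14 (78.4 and 27.9 CPM) and PLAUR (817.5 and 526 CPM). CD14 and VEGFA rested on few UMIs. Without IL1B, CD14 was found in 1.75% of LH replicate 1 cells and VEGFA in 1.82% of LL replicate 2 cells. FABP5 lay the other way in 4 of 4 libraries, with 398 CPM with IL1B and 659 CPM without. FOS, the immediate early gene, was also higher with IL1B in 4 of 4 libraries (6979 and 4742 CPM), whereas SPP1 (74.0 and 248 CPM) and HSPA1A (21.0 and 36.4 CPM) were lower in 4 of 4, and the part of dissociation or of RNA from other cells was not tested. MRC1 showed no such order, since it was higher with IL1B in 2 of 4 libraries. The cells were split by a gene of their own, and the genes given were picked from a longer list. These values are a description with no test.

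Split by MRC1 instead, the macrophages with an MRC1 UMI (66, 30, 35 and 25 cells) held more CTSB than those without (184, 68, 91 and 181 cells) in 4 of 4 libraries, with mean levels of 543 CPM with MRC1 and 313 CPM without. CXCL8 (1959 and 1241 CPM), CXCL1 (120.1 and 64.3 CPM), CD80 (46.5 and 22.7 CPM) and FCGR3A (364 and 297 CPM) were also higher with MRC1 in 4 of 4 libraries. CD80 rested on few UMIs. It stood at 50 against 44.1 CPM in LL replicate 2, and 4% against 1.1% of cells held it in LH replicate 2. FABP5 was lower with MRC1 in 4 of 4 libraries (391 and 622 CPM), as was SPP1 (78.3 and 223 CPM), and the milk gene PAEP was higher with MRC1 in 0 of 4 (85.4 and 196 CPM). FOS was higher with MRC1 in 4 of 4 libraries (6252 and 5295 CPM). So was C1QA, which defined the cells (5082 and 4668 CPM), while HSPA1A was lower in 4 of 4 (12.6 and 35.7 CPM). The part of dissociation or of RNA from other cells was not tested. The genes given were picked from a longer list, and this split too is a description with no test. IL1B was higher with MRC1 in 2 of 4 libraries, so the cells with either gene were not split alike by the other. The expression of CTSB in the MRC1-bearing cells of single libraries was 591, 367, 414 and 800 CPM, against 462, 103, 396 and 293 CPM in the cells without MRC1, and it was close to level in LH replicate 1.

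**Figure D4:**
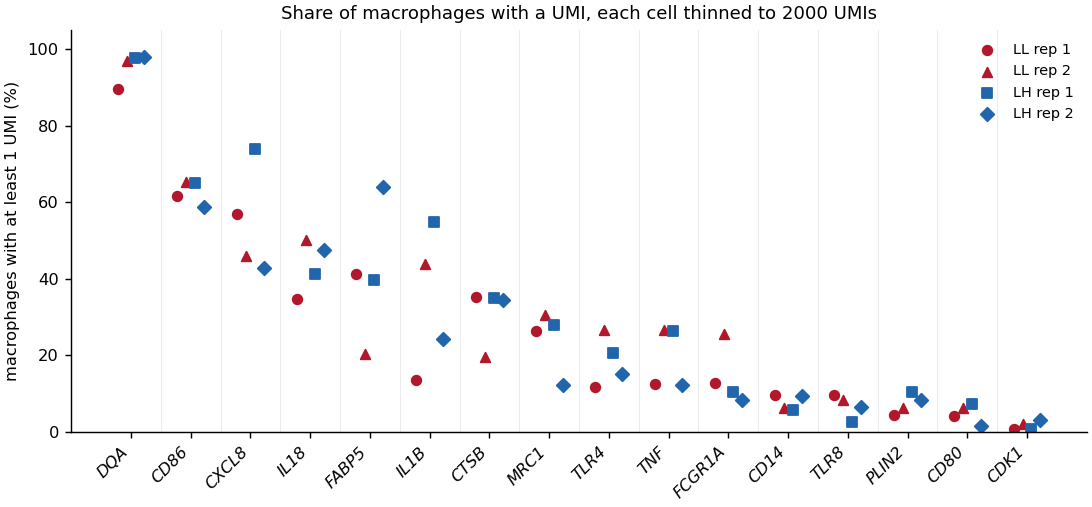
Share of macrophages with a UMI of each of 16 genes after thinning every cell to 2000 UMIs, 1 point per library, LL left of LH. CD86 and DQA lie close together over the 4 libraries, while IL1B (13.6% to 54.8%) and FABP5 (20.4% to 64.1%) spread widely within a stage.

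LL was then set against LH within the macrophages. None of the markers passed between the stages. The log2 difference (LL over LH) was 0.05 for MRC1 (edgeR adjusted p = 0.987), -0.26 for CD14 (edgeR adjusted p = 0.93), 0.63 for FCGR1A (edgeR adjusted p = 0.864), -0.23 for CD86 and -0.82 for DQA. Of 8377 tested genes 1 passed in edgeR, or 0.0119%, and 486 had an unadjusted p under 0.05, while DESeq2 called 10 (0.119%), 8 of them higher in LL (0.0955%) and 2 lower (0.0239%). The LL and LH values did not overlap in 37.9% of all tested genes. Of the 411 tested genes with a symbol, 0 passed in edgeR, 23 were under 0.05 before adjustment, and 2 passed in DESeq2, FABP4 and DCN, a fibroblast gene that the selection rule limits (log2 3.34, DESeq2 adjusted p = 0.035). DCN stood at 71.4 and 40.8 CPM in LL macrophages and at 9.10 and 1.96 CPM in LH macrophages, against 2456 and 1195 CPM in LL and 708 and 37.3 CPM in LH in the other cells. The tested fibroblast markers GSN and DCN had a median of 1.83 and the tested luminal markers PAEP and LTF a median of 2.00, with 0 passing in edgeR. For DCN and PAEP (log2 3.27, edgeR adjusted p = 0.837) the LL values were all above the LH values, whereas the stages overlapped for GSN (log2 0.26) and LTF (log2 0.73). The part of RNA from these lineages in the stage differences was not tested. The edgeR count was 62 without LH replicate 2, 6 without LH replicate 1, 1 without LL replicate 1 and 0 without LL replicate 2.

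The gene that passed, ENSOARG00000002980, carried no symbol. It stood at 256 and 185 CPM in LL macrophages (448 and 86 UMIs) and at 0 and 0.652 CPM in LH macrophages (0 and 1 UMI; edgeR adjusted p = 0.0195). The other cells showed the same split, with 138 and 198 CPM in LL and 0.298 and 0.366 CPM in LH. With 1 UMI in LH macrophages no fold is given.

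The 10 named genes of lowest p had values as follows, none of which passed in edgeR. ABHD5, which activates triglyceride lipolysis, stood at 37.1 and 40.8 CPM in LL macrophages, against 114 and 122.5 CPM in LH macrophages (log2 -1.68 ± 0.28, edgeR adjusted p = 0.524). CPT1A, which carries fatty acids into mitochondria, stood at 33.7 and 36.5 CPM in LL macrophages and at 83.7 and 70.4 CPM in LH macrophages (log2 -1.21, edgeR adjusted p = 0.744). All other cells showed like values for ABHD5, with 38.1 and 49.0 CPM in LL and 108 and 108 CPM in LH. FABP4, a fatty acid carrier, stood at 35.4 and 36.5 CPM in LL macrophages and at 0 and 3.26 CPM in LH macrophages (log2 4.15 ± 0.77, edgeR adjusted p = 0.744; DESeq2 adjusted p = 0.0359). Without LH replicate 2 its log2 was 8.25, but this is set against 0 CPM in LH replicate 1 alone, so its size is not reliable. The adjusted p ran from 3.8e-07 to 1.0 over 15 alternatives in edgeR or DESeq2. FABP4 lay higher in the other cells, with 156 and 54.7 CPM in LL and 5.45 and 14.1 CPM in LH.

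The Fc receptor FCGRT stood at 36.5 and 32.2 CPM in LL macrophages and at 80.1 and 98.4 CPM in LH macrophages (log2 -1.41 ± 0.30, edgeR adjusted p = 0.744). VEGFA, which drives vessel growth, stood at 35.4 and 51.5 CPM in LL macrophages and at 126 and 74.95 CPM in LH macrophages (log2 -1.34, edgeR adjusted p = 0.837). PDXK, the pyridoxal kinase, stood at 35.98 and 27.9 CPM in LL and at 89.2 and 84.1 CPM in LH (log2 -1.45). In each of these genes both LL libraries lay below both LH libraries. EYA3, a transcriptional coactivator, stood at 114 and 118 CPM in LL and at 54.6 and 41.7 CPM in LH (log2 1.19). CCND3, a D-type cyclin, stood at 88.0 and 77.2 CPM in LL and at 44.6 and 36.5 CPM in LH (log2 0.97). MMP19, a metalloproteinase, stood at 16.6 and 4.29 CPM in LL and at 35.5 and 41.7 CPM in LH (log2 -1.67). ARNT2, a basic helix-loop-helix factor, stood at 10.8 and 19.3 CPM in LL and at 64.6 and 28.7 CPM in LH (log2 -1.82, edgeR adjusted p = 0.837, 0.0492 without LH replicate 2, and 0.016 to 1.0 over 16 alternatives).

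By list, 0 members passed in any of the lists in edgeR. Among 14 tested lipid genes, 4 had an unadjusted p under 0.05, against 486 of all 8377 genes, and DESeq2 called 1, FABP4. In 5 of the 14 the stages did not overlap, a share near the 37.9% of all genes. Among 6 cell cycle genes the median was -0.72, and 3 were under 0.05 before adjustment. In 4 of the 6 the stages did not overlap, against 37.9% of all genes, and 0 passed in DESeq2. The 8 antigen presentation genes had a median of -0.37, and in 5 of them the stages did not overlap, against 37.9% of all genes, with 0 under an unadjusted p of 0.05 and 0 called by DESeq2. The 10 pattern recognition genes had a median of -0.09 and the 6 tested inflammatory cytokines of 0.08. The median over all tested genes was -0.01.

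**Figure D5:**
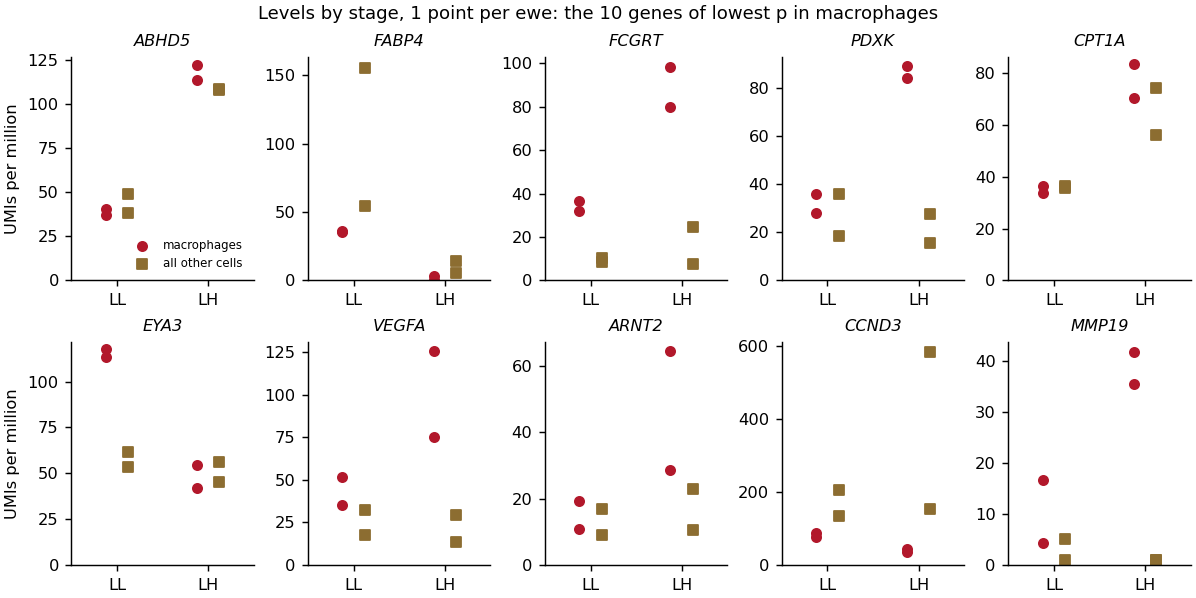
Levels in CPM (linear axes from 0, 1 per gene) of the 10 named genes of lowest p in LL and LH, for macrophages and for all other cells, 1 point per library. In macrophages the LL points of ABHD5, FCGRT, PDXK, CPT1A and VEGFA lie below the LH points, and for ABHD5 and CPT1A the other cells show the same order.

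Whether the stage difference of macrophages differed from that of all other cells was tested as an interaction over 14146 genes. In edgeR 1 gene passed, or 0.00707%, and 666 had an unadjusted p under 0.05. Of the 580 tested genes with a symbol 0 passed, and 41 had an unadjusted p under 0.05, a fit for which DESeq2 was not run. The 3 genes with a symbol of lowest p, picked after their values were seen, were ALDH1A1, a retinaldehyde dehydrogenase (log2 -2.30), ABCG2, a transporter that secretes compounds into milk (log2 -2.76), and MMP19 (log2 -3.42), each with an edgeR adjusted p = 0.114. ALDH1A1 stood at 139 and 118 CPM in LL macrophages and at 167.5 and 171 CPM in LH macrophages, and at 78.5 and 66.9 CPM in LL and 15.8 and 25.7 CPM in LH in the other cells. ABCG2 stood at 57.1 and 12.9 CPM in LL macrophages and at 10.9 and 18.25 CPM in LH macrophages, and at 161 and 15.4 CPM in LL and 2.76 and 6.975 CPM in LH in the other cells. MMP19 stood at 5.0 and 0.944 CPM in LL and at 0.970 and 1.01 CPM in LH in the other cells. The interaction of MRC1 was -0.15 (edgeR adjusted p = 1).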

How the data were processed

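Droplet-based single-cell RNA libraries of mammary gland from 4 ewes were analysed, 1 library per ewe. The deposited matrices hold UMI counts per gene and barcode as the authors made them, with Cell Ranger 7.2.0 per the file headers. The submitters' processing notes name Cell Ranger 5.0.1, STAR and Seurat 3.2.0. A genome build was not given in the sources used here. Deposited barcodes held at least 500 UMIs, and no other filter than the 20% mitochondrial limit was applied. Gene symbols come from the deposited feature tables (774 of 20150 genes); 762 of these symbols were found in the RefSeq gene table of ARS-UI_Ramb_v3.0, and 0 of the identifiers.

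UMI counts were summed per library and set of cells. Genes passing filterByExpr (minimum count of 10) were tested with edgeR 4.0.16 in R 4.3.3 (quasi-likelihood F test, TMM scaling, Benjamini-Hochberg adjustment over all genes tested at 0.05), with the ewe as a block except for LL against LH. DESeq2 1.42.0 was an alternative. Shares were compared with an exact two-sided permutation test over the 4 libraries (Python 3.11.15, scipy 1.17.1). The labels call the libraries separate replicates, and p-values measure the spread between these ewes. Doublets were not removed: a score against simulated pairs of cells (2 per cell, 30 principal components, expected rate of 0.8% per 1000 cells) served as an alternative. Other alternatives were the C1QA minimum, the mitochondrial limit, a UMI minimum, equal numbers of macrophages (131 per library), scaling, the low-count filter, the block and leaving out each library.

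Genes were named if they carried a symbol and lay outside the selection rule. Against other cells, up to 15 higher and 10 lower genes of largest log2 difference were named with an adjusted p under 0.05, at least 20 CPM in the higher set and 1 direction in 4 ewes, and 12 each way against IL1 cells. Between stages no gene with a symbol passed, so the 10 of lowest p at 20 CPM or more are given. The given markers MRC1, CD14 and FCGR1A and examples of each gene list were added. The members, gene lists and comparisons were chosen with earlier results of these data known. Results for a few genes are not reported here.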

Additional observations from a re-analysis of the deposited data

Results flagged for a closer look

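The stage difference of ENSOARG00000021044 in macrophages differed from that in all other cells, with an interaction log2 of 3.62 ± 0.58 (edgeR adjusted p = 0.0353). The gene carries no symbol. It stood at 104.5 and 77.3 CPM in LL macrophages and at 5.46 and 1.30 CPM in LH macrophages. In all other cells it stood at 55.1 and 22.5 CPM in LL and at 31.6 and 5.03 CPM in LH. The LL macrophage sums held 183 and 36 UMIs of it and the LH sums 6 and 2 UMIs. The call did not hold with scaling to library totals, without the block, or when LL replicate 1, LL replicate 2 or LH replicate 1 was left out. DESeq2 was not run on the interaction, and its LL against LH test within macrophages called the gene (DESeq2 adjusted p = 3e-06).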

How the results depend on the processing

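The 26 genes named against other cells kept their call in 104 of 104 fits without 1 library and in 285 of 286 other settings. The call that was lost was that of IL12RB2 with 1 UMI of C1QA allowed. Without single libraries, 3838 to 5006 genes were called. Against IL1 cells, 1475 genes passed, 964 with 1 UMI of C1QA allowed, 2737 with no filter on low counts, and 650 to 2183 without single libraries. Between LL and LH, 1 gene passed in edgeR, 10 in DESeq2, 2 with library totals, 145 with no filter, and 0 to 62 without single libraries (0 without LL replicate 2 in edgeR, with 334 at an unadjusted p under 0.05). With a replicate block, 2 genes passed. The replicate numbers do not pair ewes, and the deviations of LL and LH replicate 1 correlated at -0.03 over 7972 genes. With no filter, ABHD5, FABP4, FCGRT, PDXK, VEGFA and ARNT2 also passed. The interaction gave 1 gene, 52 with no filter, 0 with library totals (602 at an unadjusted p under 0.05), 0 with no replicate block (336) and 0 to 155 without single libraries. The share with MRC1 ran from 0.728 to 16.4 points and the macrophage share from -2.89 to -1.67 points without single libraries. MRC1 between stages turned to -0.056 with 1 UMI of C1QA allowed. Leaving out 1 library each gave -0.37 to 0.63 for MRC1, -0.77 to 0.0066 for CD14 and -0.079 to 1.16 for FCGR1A. The cause of these changes was not tested. Depth limits the stage comparison: LL replicate 2 gave 131 macrophages and 465998 UMIs.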

Other observations

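A few genes outside the lists were high in macrophages, and they were chosen after their values were seen. ADORA3, an adenosine receptor, stood at 21.7, 12.9, 9.10 and 21.5 CPM in macrophages and at 0.0619 to 0.239 CPM in other cells, and macrophages held 87 of its 122 UMIs (71.3%). STAR, which moves cholesterol into mitochondria for steroid synthesis, stood at 91.4, 2.15, 6.37 and 5.87 CPM in macrophages and at 0.201 to 2.28 CPM in other cells. LL replicate 1 gave 160 of its 177 macrophage UMIs. OXT, which encodes the precursor of oxytocin and neurophysin, stood at 27.4, 21.5, 10.0 and 31.9 CPM in macrophages and at 0.805 to 1.49 CPM in other cells, with 118 of 364 UMIs (32.4%) in macrophages.

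IL10, the anti-inflammatory cytokine, was rare, at 2.28, 12.9, 25.5 and 0.652 CPM in macrophages and at 0.0171 to 0.410 CPM in other cells. After thinning to 2000 UMIs, an IL10 UMI was found in 0.8% and 2.04% of LL macrophages and in 3.97% and 0 of LH macrophages, where 0 of 206 cells allows a share of up to 1.46% (3 counts) for counting error only. CXCR4, a chemokine receptor, stood at 148 CPM in the macrophages of LL replicate 2 and at 20.6 to 38.2 CPM in those of the other libraries. PPARG, a lipid-sensing nuclear receptor, stood at 188 CPM in the macrophages of LL replicate 1 and at 27.9 to 58.6 CPM in those of the other libraries.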
